A study of Mus musculus with 37 samples.

Results

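Aminoacyl-tRNA synthetases join each amino acid to its tRNA, and the ribosome footprints of mouse dendritic cells gave open reading frames (ORFs) for 34 of the 36 synthetase genes chosen by name. Their families held 49 of the 22367 ORFs in the authors' list. Each ORF runs from its start codon to the next stop codon in that frame and carries 1 score from the authors. The sources used here do not say how that score was computed or what it measures. A family is all ORFs whose names share a gene symbol, and the list had 10418 of them. The 34 families comprised 18 cytosolic enzymes with 29 ORFs, 14 mitochondrial enzymes with 18 ORFs and the dual-use enzymes Gars and Kars with 1 ORF each. Lars2 and Tars2, the mitochondrial leucyl and threonyl enzymes, had no ORF in the list used here.

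Bone marrow cells of C57BL/6J mice aged 6-8 weeks were grown into dendritic cells, antigen-presenting cells of the immune system, and fragments of RNA shielded by ribosomes were sequenced in 37 libraries. Lipopolysaccharide (LPS, 100 ng/mL), which comes from the outer membrane of bacteria and activates dendritic cells, was given for 0.5 to 12 h to cells lysed after cycloheximide (16 libraries) or without an inhibitor (8 libraries), and mixed LPS times were used with harringtonine and with lactimidomycin (1 library each). Mock-treated cells (8 libraries) and naive cells (2 libraries) received cycloheximide, and 1 naive library had no inhibitor. The list pools all libraries and has no value per library, so LPS, mock, naive and inhibitor groups could not be compared, the depth is unknown and no ORF has a replicate. Each value below is a description of this list and no test was made, because genes are not replicates of an experiment. As a check of the label, 9 of 10 dendritic cell markers had a listed ORF, among them Itgax, Cd74, H2-Ab1 and Ciita, but so did 6 of 6 neutrophil, 4 of 5 macrophage and monocyte, 3 of 4 fibroblast, 3 of 4 mast cell, 1 of 4 B cell and none of 4 T cell markers.

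Synthetases fix the genetic code, since each enzyme pairs an amino acid with the tRNAs that read its codons. Cytosol and mitochondria translate separately, and most amino acids have a nuclear gene for each compartment. The glycyl and lysyl enzymes are exceptions: Gars makes both forms from alternative start codons, as described for the human gene, and Kars from alternative splicing. Qars, the glutaminyl enzyme, has no mitochondrial partner, since mitochondria make glutaminyl-tRNA by amidation. Several cytosolic enzymes sit in a multisynthetase complex, and Eprs carries the glutamyl and prolyl activities in 1 chain.

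Most synthetases were listed with a single ORF. This held for 23 of 34 families (67.6%, 95% Clopper-Pearson interval 49.5 to 82.6), against 43.7% of all families. By compartment it was 11 of 18 cytosolic families (61.1%, interval 35.7 to 82.7), 10 of 14 mitochondrial families (71.4%, interval 41.9 to 91.6) and both dual-use families. These intervals cover counting error only. The longest ORF of a family is called the main ORF. Its median length was 582 codons in synthetases, with a range of 360 codons in Wars2 to 1512 in Eprs, against a median of 434 codons in all other families. No synthetase had an ORF in another frame or exon within the span of its main ORF, against 8.62% of all families. None had an ORF over the main stop, against 0.288%. The interval for 0 of 34 runs from 0 to 10.3%, so it includes both of these shares.

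The start codons of 3 mitochondrial enzymes with very short leaders could be read in RefSeq. The leader is the part of the transcript before the main start. RefSeq windows of build GRCm38.p6, which run 50 bases past a gene's start, were at hand for 27 of the 36 genes. For 7 synthetases the listed start follows an intron-free leader short enough for the window, and an ATG stood at exactly the listed distance in 3 of them. The same held for 528 of 904 such families over the whole list (58.4%). Whether the rest differ in transcript start or begin at another codon was not tested. The start regions of the 3 genes are shown with 12 bases on the left of the ATG, which is in capitals. They lie at chr17:45506842-45506865, chr3:99141087-99141110 and chr16:16302972-16302995, all on the plus strand.
Aars2: cccggagctaagATGgcggtggcg
Wars2: gcccttctcaagATGgcgctgttc
Yars2: gtgtcccgcaagATGgcggcgccc
Each of the 3 had A at the third base before the ATG and G right after it. A purine and a G at these bases, the context known to favour initiation in vertebrates, stood in 386 of the 528 families (73.1%). Their leaders had 13 bases in Aars2, the mitochondrial alanyl enzyme, 9 in Wars2, the tryptophanyl enzyme, and 19 in Yars2, the tyrosyl enzyme.

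Gars and Kars were each listed with 1 start. Gars, the glycyl enzyme, had an ORF of 683 codons with a score of 962, at chromosome 6, 54988174 to 55029339 (mm9, plus strand). Kars, the lysyl enzyme, had an ORF of 595 codons with a score of 977, at chromosome 8, 114517508 to 114535168 (mm9, minus strand). The authors' score, which is 500 or more for every ORF, was used to rank ORFs within this list, and 68.9% of all main ORFs scored below Gars and 80.7% below Kars. No second start and no splice variant was listed for either gene, so the list holds no pair of compartment forms. In Gars the listed start followed a leader of 179 bases without an intron. In the RefSeq window of Gars an ATG begins at base 42 of the gene, at chr6:55038031-55038050 on the plus strand (GRCm38.p6). It is shown in capitals because it would lie upstream of the listed start, in its frame, if the listed transcript and the RefSeq gene begin at the same base.
Gars ATG: gcggcgtgctcATGccctgt
In that case this ATG lies 138 bases before the listed start, which is 46 codons in the same frame, and an ORF from it would have 729 codons if no stop codon lies between. The window ends 2 codons after this ATG, so the bases up to the listed start were not read. Whether the transcript starts coincide was not tested. The first 50 bases of the gene were scanned in this way in 13 synthetases, and 5 of them held an ATG. Counted from a common transcript start, 2 of the 8 ATGs found were in the frame of the listed start, in Gars and Yars. The other 6 were out of frame, with 3 in Mars, 2 in Sars2 and 1 in Cars2. No such scan over all families is given here, so these counts have no background to be set against. The 2 in-frame ATGs are given as positions and not as evidence of a start. In Kars the leader had 37 bases, and its window held no ATG at that distance.

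Another in-frame start with the stop codon of the main ORF was listed for 4 of 34 synthetases (11.8%, interval 3.3 to 27.5), against 23% of all families. These were Yars and Nars in the cytosol and Cars2 and Nars2 in mitochondria, so 2 of 18 cytosolic and 2 of 14 mitochondrial families had one. ORFs that begin at a common start had a common score at all 7 such starts of synthetases and at 74.7% of such starts in the whole list.

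Yars, the cytosolic tyrosyl enzyme, was the synthetase whose longest ORF scored lowest. The 564-codon ORF, at chromosome 4, 128867152 to 128895785 (mm9, plus strand), scored 574, and only 5.51% of all main ORFs scored lower. The start 36 codons inside it, with 528 codons, scored 949. The inner start thus outscored the outer one. In the whole list, 1453 of the 3406 ORFs with another in-frame start scored above their main ORF (42.7%). Of these 3406 ORFs, 3147 begin at a codon inside the main ORF, so the share is not one of inner starts alone. In the remaining 3 synthetases the outer start scored higher. The RefSeq window of Yars held an ATG at base 6 of the gene, in agctgATGcaaccc (chr4:129189903-129189916, plus strand, GRCm38.p6), with no stop codon in its frame over the 14 codons that the window shows after it. Counted from a common transcript start, it lies 108 bases before the start of the 564-codon ORF. That is also the distance of 108 bases between the 2 listed starts, which has no bearing on where the RefSeq gene begins. If the RefSeq gene began 108 bases further in, the ATG would instead be the start of the 564-codon ORF. Which of these holds was not tested.

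Nars, the cytosolic asparaginyl enzyme, had a 559-codon main ORF with a score of 925. A start 11 codons inside it gave 548 codons with a score of 525, near the list minimum of 500. Cars2, the mitochondrial cysteinyl enzyme, had 560 codons with a score of 763 at chromosome 8, 11514114 to 11550701 (mm9, minus strand), and a start 8 codons further in with 552 codons and a score of 574. The inner start of Cars2 lies near the amino end, where imported mitochondrial enzymes usually carry their targeting signal. Starts no more than 11 codons inside the main ORF made up 29.7% of those in the whole list that could be placed. Nars2, the mitochondrial asparaginyl enzyme, had a 523-codon main ORF with a score of 901. Its other ORF held the last 122 codons, began 401 codons inside the main ORF and scored 552. That ORF lay on a listed transcript without the main start, with 2060 bases of its own before the start codon. The median start in the whole list lay 23 codons inside its main ORF.

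**Figure D1:**
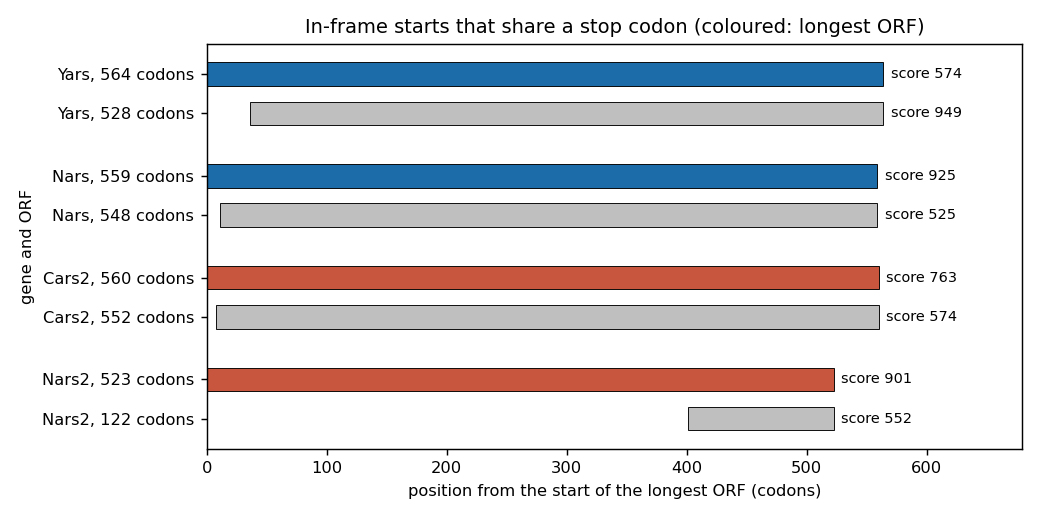
ORFs with a common stop codon in the 4 synthetases with another in-frame start, drawn in codons from the start of the longest ORF (coloured, blue for cytosolic and red for mitochondrial), with the authors' score beside each. In Yars the inner start scores 949 against 574 for the outer one, and in Nars, Cars2 and Nars2 the outer start scores higher.

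Splice variants that begin and end where the main ORF does were listed for 7 families (20.6%, interval 8.7 to 37.9), against an in-frame isoform in 23.1% of all families. The isoform class behind the 23.1% is wider, since it also holds ORFs that share codons with the main ORF but end at another stop. Among the 7 synthetase families were 6 of 18 cytosolic families and 1 of 14 mitochondrial families. Qars is among the 6, and its variant belongs to the second of 3 long ORFs on 1 transcript, described below. In 4 of these families the variant was shorter by 24 codons or fewer. Nars lost 1 codon, Mars, the methionyl enzyme, 8 codons, Lars, the leucyl enzyme, 13 codons and Sars, the seryl enzyme, 24 codons. Cars, the cytosolic cysteinyl enzyme, had 811 codons in the main ORF, and its variants had 748 and 728. Hars2, the mitochondrial histidyl enzyme, had 505 codons and a variant of 424 with 1 coding exon fewer. All these variants carry the score of the start they share with the main ORF, which was 986 in Mars and Sars, 933 in Cars, 925 in Nars, 871 in Lars and 828 in Hars2, so the score says nothing of how much each splice form was translated.

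The seventh of these families was Qars, whose name covers 3 long ORFs that do not overlap. All 3 lay on 1 spliced transcript of 9359 bases with 48 exons. The first had 775 codons, a leader of 78 bases and a score of 987, the highest of any synthetase ORF. The second began 1475 bases after the first one's stop and had 777 codons with a score of 934, and a 433-codon variant of it lay on another transcript. The third had 514 codons and a score of 986. In the RefSeq gene table of another build, the protein-coding genes that follow Qars are Qrich1 and Impdh2, and neither has a family of its own name in this list. Which ORF encodes which protein was not tested. By the rule that the longest ORF is the main ORF, the second ORF counts as main, by 2 codons, and the first is then called upstream and the third downstream. Qars was the 1 synthetase of 34 with a downstream ORF, against 1.91% of all families. The Qars region spans chromosome 9, 108410414 to 108467850 (mm9, plus strand), from the start of the first ORF to the stop of the third.

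**Figure D2:**
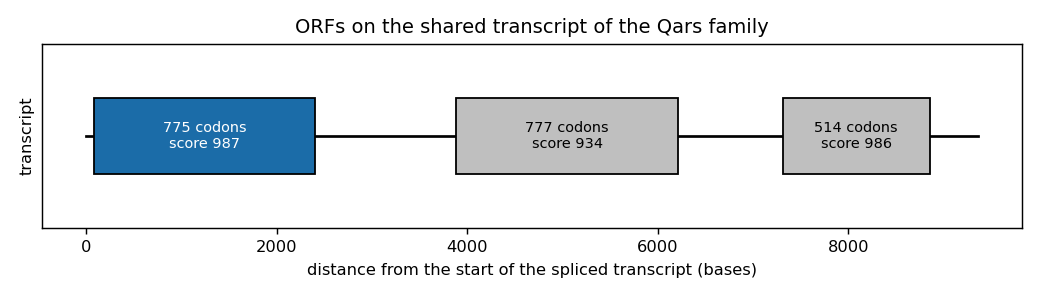
The spliced transcript of the Qars family, with its 3 ORFs as boxes along the distance in bases from the transcript start. The first ORF (blue) has 775 codons and a score of 987, and the others (grey) have 777 and 514 codons.

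Upstream ORFs, short reading frames in the leader that are known to hold back translation of the main ORF in many genes, were listed for few synthetases. They stood in 2 of 34 families (5.88%, interval 0.72 to 19.7), against 20.2% of all families. In Qars the upstream ORF is the 775-codon ORF of the joined transcript, so with only the first ORF of that transcript kept, 1 of 34 families had one (2.94%). That gene was Fars2, the mitochondrial phenylalanyl enzyme. Its upstream ORF had 14 codons and a score of 810, at chromosome 13, 36209750 to 36209794 (mm9, plus strand), and its stop lay 101 bases before the start of the 451-codon main ORF, which scored 743. The upstream ORF of Fars2 thus outscored its main ORF, the lowest-scoring of the mitochondrial class. Upstream ORFs in the whole list had a median of 19 codons and a median score of 770.

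Most synthetases had short leaders. The median leader was 105 bases in the 34 families, with quartiles of 48.25 and 165.25, against 186 bases in all other families, with quartiles of 92 and 365. Among families with a leader of 49 to 165 bases, an upstream ORF was listed for none of 16 synthetases (interval 0 to 20.6%) and for 9.01% of 3531 other families. With such leaders, another in-frame start was listed for 4 of 16 synthetases (25%), against 25.2% of the other families, and a single ORF for 7 of 16 synthetases (43.8%) against 49.2%. The part of leader length in the counts of upstream ORFs was not tested beyond these values, and this range was chosen after seeing the data.

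Mitochondrial enzymes included the shortest leaders, apart from that of Farsb. Cytosolic families had a median leader of 109 bases and mitochondrial families of 66.5, with wide overlap. Farsb, the beta subunit of the cytosolic phenylalanyl enzyme, had 4 bases. Leaders under 20 bases stood before 3 of 14 mitochondrial and 1 of 18 cytosolic main ORFs, against 3.26% of all families. At the other end, Vars2, the mitochondrial valyl enzyme, had a leader of 1126 bases with 7 introns before a 791-codon ORF, Pars2, the prolyl enzyme, had 925 bases, and Fars2 had 616. In the cytosol the longest leader outside Qars was that of Aars, the alanyl enzyme, with 830 bases and 3 introns. An intron lay in the leader of 8 of 34 synthetases, against 38.4% of all families. Qars is among them, with its second ORF taken as main. Long leaders of Vars2, Pars2 and Aars held no listed upstream ORF.

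**Figure D3:**
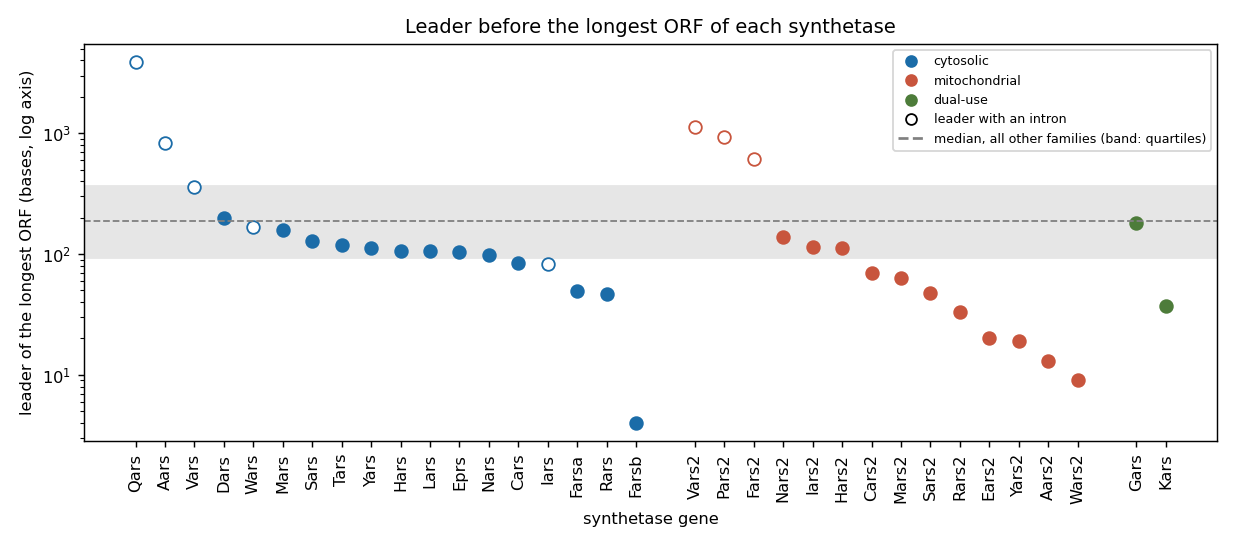
Leader length in bases (log axis) of the main ORF of each synthetase, with cytosolic enzymes on the left, mitochondrial ones in the middle and dual-use ones on the right, and open circles for leaders with an intron. The dashed line is the median of all other families (186 bases) and the band their quartiles, and most synthetases lie below the line.

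Main ORFs of synthetases scored about as high as those of other genes. The median was 929 in synthetases and 926 in all other families, and 22 of 34 synthetases (64.7%, interval 46.5 to 80.3) scored 900 or more, against 56.7% of all families. Among other families with main ORFs of 360 to 1512 codons, the range of the synthetases, the median score was 912. By compartment the median was 936.5 in cytosolic families, 900.5 in mitochondrial families and 969.5 in the dual-use pair. The cytosolic scores ran from 574 to 986 and the mitochondrial ones from 743 to 971, so the classes overlap over most of their range. Qars counts here with its second ORF (934), and the first ORF of its joined transcript scored 987.

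In the cytosol, Mars and Sars scored 986, and Hars, the histidyl enzyme, scored 985. The lowest cytosolic scores were 574 in Yars, 795 in Wars and 839 in Tars, the threonyl enzyme. Wars, the tryptophanyl enzyme known as a gene induced by interferon gamma, had a single ORF of 475 codons after a leader of 168 bases with an intron. In mitochondria the highest scores were 971 in Wars2, 962 in Iars2, the isoleucyl enzyme, and 952 in Sars2, the seryl enzyme. The lowest were 743 in Fars2 and 763 in Cars2, followed by 828 in both Hars2 and Vars2. Of the others, the cytosolic enzymes Dars, Eprs, Farsa, Farsb, Iars, Rars and Vars had a single ORF with scores of 878 to 973, and Aars had one with 983. Aars2, Ears2, Mars2, Pars2, Rars2 and Yars2 also had a single ORF, with scores of 864 to 940.

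**Figure D4:**
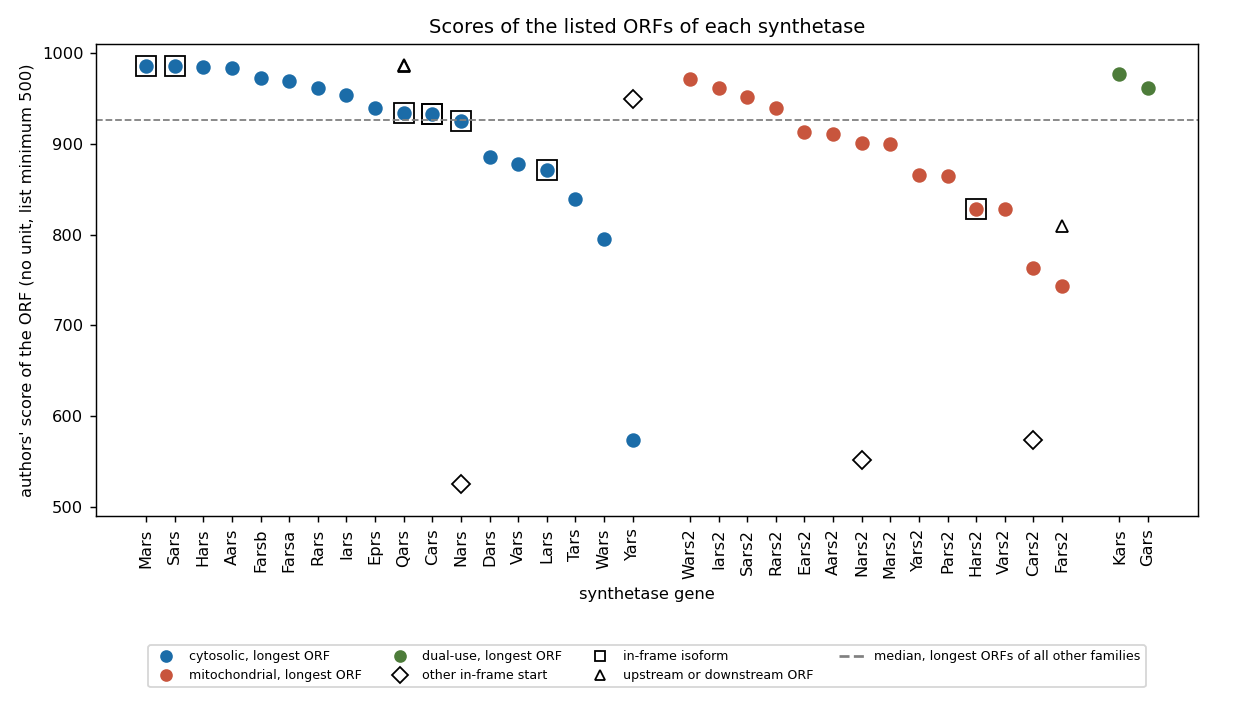
The authors' score of each listed ORF, with cytosolic, mitochondrial and dual-use genes from left to right and each group sorted by the score of its main ORF (filled circles). Open symbols are further ORFs of the same gene, and the dashed line is the median of the main ORFs of all other families (926).

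Set side by side for the same amino acid, the cytosolic enzyme had the higher score in 12 of 15 pairs and the mitochondrial enzyme in 3. The pairs share members, since Fars2 is set against both Farsa and Farsb and Eprs against both Ears2 and Pars2. The difference, cytosolic minus mitochondrial, had a median of 50 and ran from -292 in the tyrosyl pair to 230 for Farsb and Fars2. The histidyl pair had 985 in Hars and 828 in Hars2, and the cysteinyl pair had 933 in Cars and 763 in Cars2. The order was turned round for tryptophan, with 795 in Wars and 971 in Wars2, and for tyrosine, with 574 in Yars and 866 in Yars2. With the best score of each gene in place of that of its longest ORF, Yars had 949 and the cytosolic enzyme was higher in 13 of 15 pairs. The best score of Fars2, 810, is that of its 14-codon upstream ORF and not of the ORF of the enzyme, which scored 743. The isoleucyl pair had 954 in Iars and 962 in Iars2, a difference of -8. The list gives neither expression nor depth, so a difference in score is not a measure of translation.

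**Figure D5:**
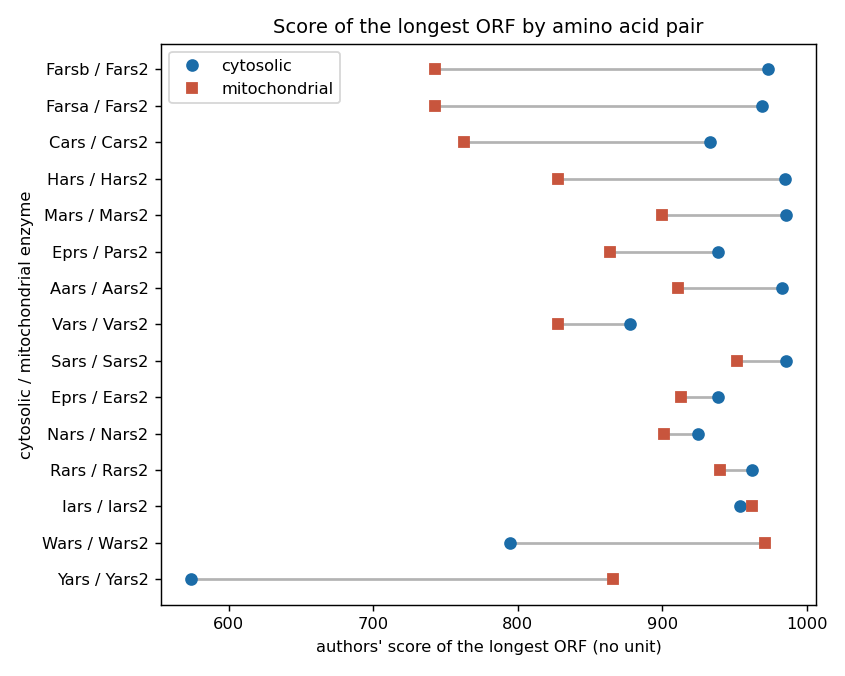
Score of the main ORF of the cytosolic enzyme (blue circles) and of the mitochondrial enzyme for the same amino acid (red squares), 1 row per pair, sorted by the difference. The cytosolic enzyme lies to the right in 12 of 15 rows, and Iars, Wars and Yars lie to the left of their partners.

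Cytosolic main ORFs were also longer, with 14 of 15 pairs in that order and a median difference of 115 codons. Eprs had 1512 codons, against 523 in Ears2 and 475 in Pars2, which carry its 2 activities in mitochondria. The exception was the alanyl pair, with 968 codons in Aars and 980 in Aars2. Coding exons numbered 33 in Iars and 32 in Eprs and Lars. In mitochondria, Mars2 was coded by a transcript of 1 exon, and the ORF of Pars2 lay in 1 coding exon.

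The 8 enzymes of the multisynthetase complex, Dars, Eprs, Iars, Kars, Lars, Mars, Qars and Rars, had main scores of 871 to 986 with a median of 946.5. Qars enters these values with the second ORF of its joined transcript (934), whereas the first scored 987. The 12 cytosolic or dual-use enzymes outside the complex had a median of 947.5 and a range of 574 to 986. Catalytic class, which divides synthetases by the fold of their active site, gave medians of 913 in 17 enzymes of class I and 938.5 in 16 of class II, leaving out Eprs, which holds both folds. The ranges overlapped in both splits.

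Head-to-head neighbours stood at 10 of 34 synthetases (29.4%, interval 15.1 to 47.5), against 12.7% of all families. A neighbour was counted where the transcript of a listed family on the opposite strand starts less than 1000 bases away. It was found for 5 of 14 mitochondrial enzymes, 4 of 18 cytosolic ones and Kars. Hars and Hars2 were neighbours of each other, with 74 bases between their starts, so they count as 2 of the 10. Orc3, a subunit of the origin recognition complex, started 15 bases from Rars2, the mitochondrial arginyl enzyme. Lyrm4, needed for iron-sulfur cluster assembly in mitochondria, started 53 bases from Fars2, and Mrps12, a mitochondrial ribosomal protein, 186 bases from Sars2. Terf2ip, a telomere protein, started 53 bases from Kars. Ears2, the mitochondrial glutamyl enzyme, overlapped Ubfd1 by 89 bases at their starts. Wars, Yars and Vars had Wdr25, S100pbp and an assembled transcript without a gene name at 97, 312 and 272 bases. Only neighbours with a listed ORF can be seen in this way.

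Of 19 other genes of tRNA charging, all had a listed ORF. None had an upstream ORF, against 20.2% of all families. Another in-frame start was listed for 3 of 19 (15.8%), against 23% of all families, and an isoform for 4 of 19 (21.1%), against 23.1%. The main scores had a median of 866 and ran from 635 to 988. Pet112, a subunit of the amidotransferase that makes mitochondrial glutaminyl-tRNA, had a main ORF of 557 codons that scored 635 and a start 7 codons inside it that scored 795. Trnt1, which adds the CCA end to tRNAs, scored 817 at its 441-codon main ORF and had a start 36 codons inside it with a score of 633. Dtd2, which removes wrongly charged amino acids, had a 168-codon main ORF with a score of 809, a start 6 codons inside it with 822 and another 66 codons inside it with 624.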

How the data were processed

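Ribosome footprints of 37 libraries in 28 groups were pooled by the authors into 1 deposited list of ORFs, with a score per ORF that they assigned. Bowtie2, TopHat and mm9 are named in the submitters' processing notes. The sources used here do not name the ORF caller or its settings. The score is a whole number of 500 or more and was used only to describe and rank ORFs. Lengths exclude the stop codon, which matched the coding bases of all 22367 ORFs.

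Families were split by chromosome and strand, the longest ORF was taken as main (ties by score), and the others were classed by position and frame with Python 3.11.15, a rule that was tested on simulated data. Counts carry exact Clopper-Pearson intervals at the 95% level (scipy 1.17.1). Members and lists were chosen with earlier results of these data known. All 36 gene names matched a RefSeq table of GRCm38.p6, 1 by an older name. The table gave names and gene order only. The text names every synthetase with more than 1 ORF, the 3 highest and 3 lowest main scores per compartment, and Gars and Kars. No test over samples was possible. Alternatives were stricter scores, a minimum length, the highest-scoring ORF as main, 1 ORF per stop codon, narrower or wider classes and the Qars transcript reduced to its first ORF.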

Additional observations from a re-analysis of the deposited data

How the results depend on the processing

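Of 39 recomputed values, 33 stayed within the interval of the value reported, or within 1.5 times it for a count, and 6 did not. The share of synthetases with another in-frame start was 0% with a score of 900 or more (of 23 families), 0% at or above the median score of 847 (of 28) and 0% with 1 ORF per stop codon, which removes such starts by construction. It was 29.4% when splice variants that share both ends with the main ORF were counted as well. The share with an upstream ORF was 0% with the best score deciding which ORF is main, since the 775-codon ORF of Qars and the 14-codon ORF of Fars2 then become main ORFs. The number of synthetase ORFs was 31 with a score of 900 or more, against 49. Shares over all families under these settings are not given here. The recomputed shares therefore show how the synthetase counts depend on the setting, and not how synthetases differ from other families. The reduction of Qars to its first ORF was chosen after seeing the data. The alternative that takes the main ORF from RefSeq protein lengths was not run, because no protein table was used here. No paired analysis was possible because the list carries no value per library. Depth per library is unknown, so an ORF missing from the list is not shown to be untranslated.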
